A study of Bos taurus with 23 samples.

Results

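Pre-mRNA splicing factors and heterogeneous nuclear ribonucleoproteins (hnRNPs) were followed through bovine oocytes and preimplantation embryos. Members were the genes whose symbol begins with SRSF, SF3, SNRP, HNRNP, PRPF, LSM or U2AF in the annotation of the array, taken from probe sets that carry 1 gene symbol. This gave 65 genes of the 9155 that the array names in this way. Each gene was read from the probe set with the highest mean over all arrays. The members were 9 SR proteins, 9 subunits of SF3a and SF3b, 2 small subunits of U2AF, 4 Sm core proteins, 4 proteins specific to the U1 or U2 particle, 10 PRPF factors, 11 LSm proteins and 16 hnRNPs.

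Splicing removes introns from nuclear transcripts and joins the exons. It is carried out by the spliceosome, which assembles on each intron from small nuclear ribonucleoproteins (snRNPs) and many further proteins. U1 recognises the start of the intron, U2AF and U2 with its SF3 subunits recognise the end and the branch site, and the U4/U6.U5 tri-snRNP, which contains several PRPF factors, then forms the catalytic core. SR proteins and hnRNPs bind the transcript itself and promote or repress the use of particular sites. In the bovine embryo the early cleavages run on RNA stored in the oocyte, and major transcription of the embryonic genome begins around the 8-cell stage.

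Poly(A)+ RNA from 8 groups was hybridised to 23 Affymetrix arrays, and each value is a log2 GCRMA intensity, so a difference of 1 is a doubling. The 3 in vitro oocyte arrays are labelled as cultured oocytes, and their culture, donors and pool size are not given in the sources used here. The 3 in vivo oocyte arrays held oocytes that had matured in the animal and were aspirated on day 0, the day of oestrus, from preovulatory follicles of 9 animals. Zygotes (3 arrays), 2-cell (2), 4-cell (2) and 8-cell embryos (4) came from oviduct flushing of 24 cows, done 1 to 4 days after insemination with semen of a single Holstein-Friesian bull. The 8-cell group holds embryos of 8 to 16 cells. Morulae (3 arrays) and blastocysts (3) were flushed from the uterus of 7 animals on day 7 or 8. Each embryo array was a pool of 10 embryos, or of 5 for blastocysts, and only embryos judged intact under the microscope were used. The group labels name no treatment apart from the in vitro culture of the first, and no genotype is given. Biological replication is claimed by the labels, but which animals went into which pool is not given, so the p-values measure the spread between pools. Because arrays were scaled to one another and poly(A)+ RNA was selected, a lower value does not tell apart fewer transcripts, shorter poly(A) tails and more RNA from other genes, and in pooled embryos fewer cells of a type cannot be told apart from less RNA per cell.

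The labels were checked against marker genes. All 9 oocyte markers on the array read above 4, a level close to the array's background, on every array up to the 8-cell stage. In every blastocyst pool 7 of 8 trophectoderm markers did so, against 2 to 4 on each array up to the 8-cell stage and 5 to 7 in morulae. Array 1 of the 4-cell group held 9 of 12 blood and leukocyte markers above 4, against 2 on array 2, and in vivo oocyte array 2 held 12 of 18 cumulus and granulosa markers, against 6 and 7 on the other in vivo oocyte arrays. LTF, from the list of oviduct markers, was above 4 only on 2-cell array 1, 8-cell array 3 and blastocyst array 1, at 13.86, 10.94 and 13.18. There the summed level of the 8 oviduct markers was 13.93, 10.99 and 13.22 on the log2 scale, so LTF made up nearly all of it. Beside LTF only CST6 and, on the 2-cell and blastocyst arrays, MUC1 read above 4 there. OVGP1, PAEP, PAX8 and PGR read below 4 on all of them. The haemoglobin gene HBB read 10.79, 7.07, 7.29 and 10.54 on the 8-cell arrays and 4.45, 8.62 and 9.89 on the morula arrays, against 2.51 and 2.50 on the 4-cell arrays, and the oviduct gene OVGP1 read 7.96 and 7.62 on 8-cell arrays 1 and 4. Counts of members are given without in vivo oocyte array 2, 2-cell array 1, 4-cell array 1 and blastocyst array 1, a set that leaves in every 8-cell and morula array. The part of other cells in the results was not tested. Within groups, arrays correlated at 0.940 to 0.994 over all probe sets other than controls. The 8-cell arrays fell into pairs, with 0.988 between arrays 1 and 4, 0.974 between arrays 2 and 3 and 0.940 to 0.943 across the pairs. Counts that rest on this group are therefore also given without each pair, an alternative chosen after seeing the data.

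All 65 members passed the filter of a value above 4 on at least 2 arrays, and 59 of them read above 4 on all 23 arrays. Most members changed over in vivo development, and the 8-cell stage stood out. Limma's F test over the 7 in vivo stages passed for 62 of 65 members, 95.4%, beside 90.6% of all 7070 genes tested. The members it did not pass were PRPF3, SNRPA1 and HNRNPF. The range between a member's highest and lowest stage mean had a median of 2.71 log2 units, beside 3.42 over all genes, and ran from 0.29 for SNRPA1 to 7.86 for SRSF6. The highest stage mean fell at the 8-cell stage for 30 of 65 members (46.2%), beside 23.4% of all genes. Lowest means were most often at the 4-cell stage (17 members, 26.2%, beside 10.4% of genes) and in the in vivo oocyte (16 members, 24.6%, beside 9.72%).

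The median level of the 65 members lay between 10.52 and 10.88 on each of the 13 arrays from oocytes to 4-cell embryos. It was 11.87 to 12.08 on the 8-cell arrays, 11.46 to 11.77 on the morula arrays and 11.24 to 11.60 on the blastocyst arrays, so the later arrays did not overlap the earlier ones. The median of all genes tested stayed between 7.63 and 8.48 on all 23 arrays.

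**Figure D1:**
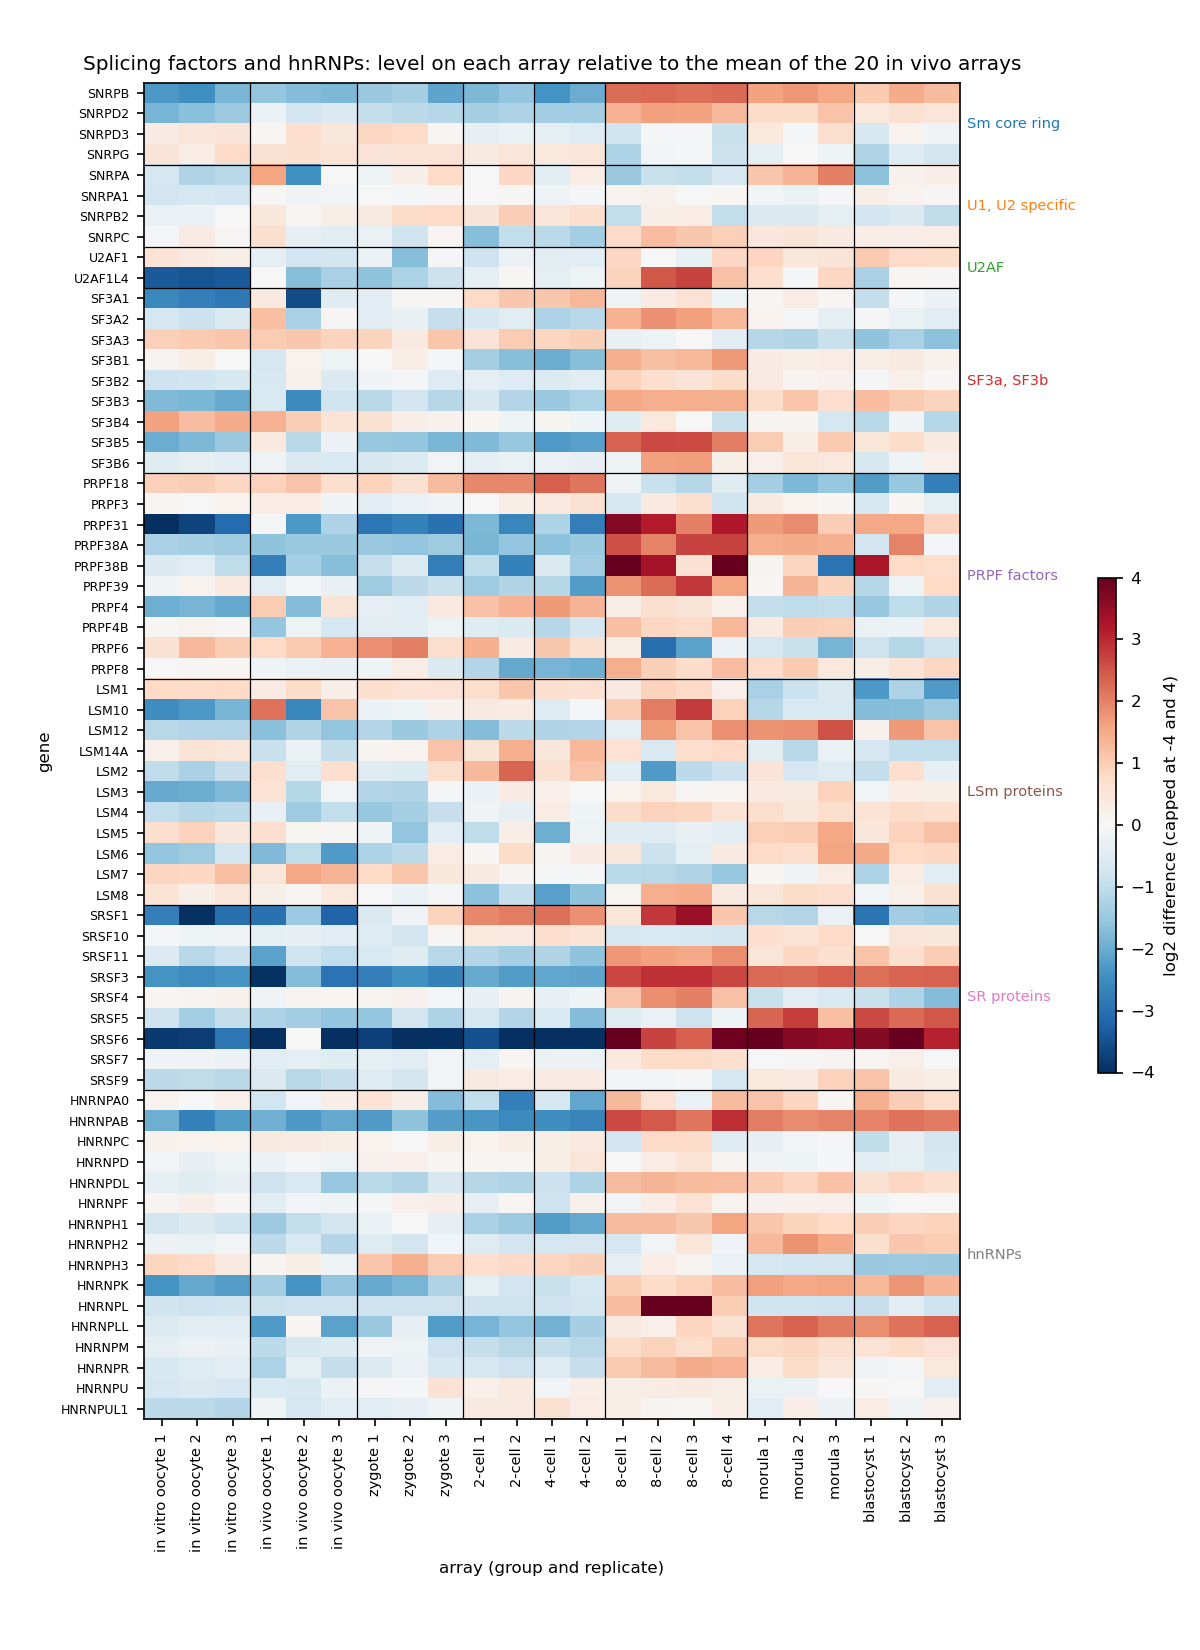
Colours give each member's log2 level on each array (columns, 8 groups) minus that member's mean over the 20 in vivo arrays, with rows grouped by role and the scale capped at -4 and 4. Most rows turn red at the 8-cell arrays, while PRPF18, SF3A3, SNRPG and HNRNPH3 are red at the 4-cell stage and blue in blastocysts.

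From the 4-cell to the 8-cell stage, 35 members rose and 10 fell, which is 53.8% and 15.4%. Over all genes tested 31.2% rose and 34.3% fell. The median change was 0.89 log2 units over members and -0.03 over all genes, a gap of 0.92. The gap was 0.805 with the mean of each member's probe sets and 1.16 without 4-cell array 1. Without the 4 arrays of other stages that carried markers of other cells 34 members rose and 9 fell. Without 8-cell arrays 1 and 4 there were 36 rises and 8 falls, and without arrays 2 and 3 there were 32 rises and 12 falls. Of the 45 calls, 36 held whichever 4-cell or 8-cell array was left out, 30 of them rises. With arrays centred on spike-in controls, the array's BioB, BioC, BioD and Cre control probe sets, 38 of the 45 calls held.

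From the 8-cell stage to the morula, 11 members rose and 27 fell (16.9% and 41.5%), where 30% of all genes rose and 28.4% fell. The median change was -0.35 over members and 0.03 over all genes. This comparison uses the same 8-cell arrays as the one before it, so they are not independent. With arrays centred on the spike-in controls 7 members rose and 12 fell. The member median minus the all-gene median was -0.376 with and without this centring. Centring shifts every gene on an array by the same amount, so this gap cannot respond to it. Without 8-cell arrays 1 and 4, 12 rose and 24 fell, without arrays 2 and 3, 14 rose and 22 fell, and without the 4 arrays of other stages 11 rose and 28 fell.

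Between the in vivo oocyte and the blastocyst, 30 members were higher in the blastocyst and 13 lower (46.2% and 20%), beside 36.2% and 32.7% of all genes. The median difference was 0.56 over members and 0.08 over all genes. Centring on the spike-in controls moved the median of all genes by -0.61 and the member counts to 16 higher and 15 lower. The counts of higher and lower members thus depended on the scaling. The member median minus the all-gene median was 0.477 with and without spike-in centring, which cannot change this gap. Without the 4 arrays that carried markers of other cells 28 were higher and 13 lower.

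**Figure D2:**
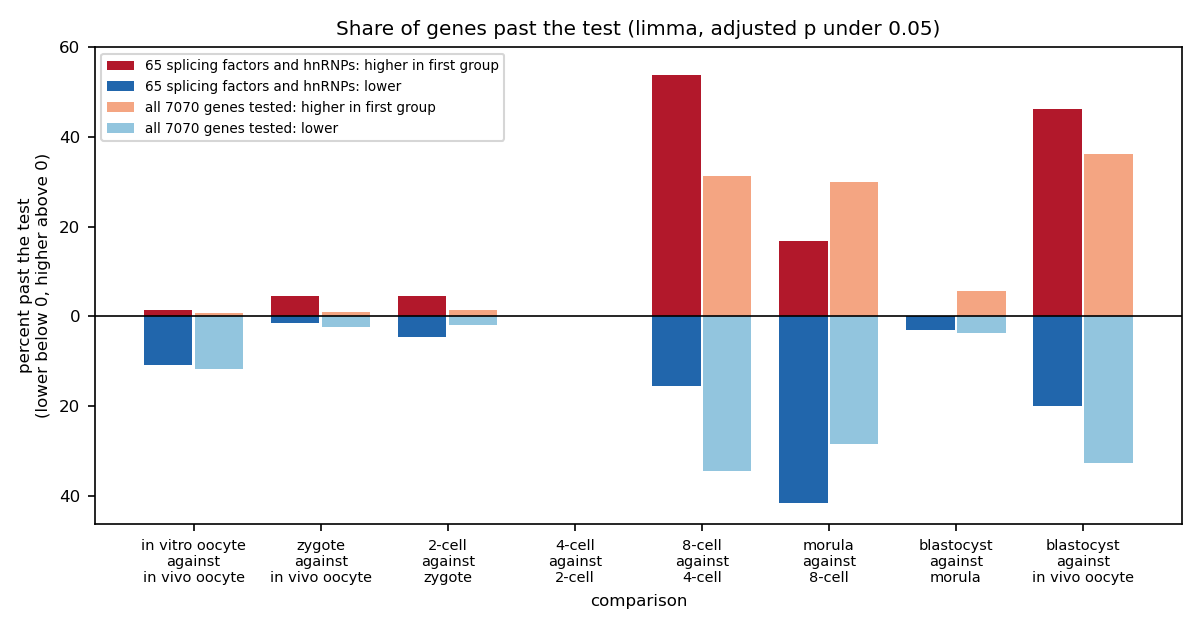
Bars give the percent of the 65 members (darker) and of all 7070 genes tested (paler) that were higher (above 0) or lower (below 0) in the first group of each of 8 comparisons at an adjusted p under 0.05. The darker bar for higher genes reaches 53.8% at the 8-cell stage against 31.2% for all genes, and few genes of either kind pass between the oocyte and the 4-cell stage.

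**Figure D3:**
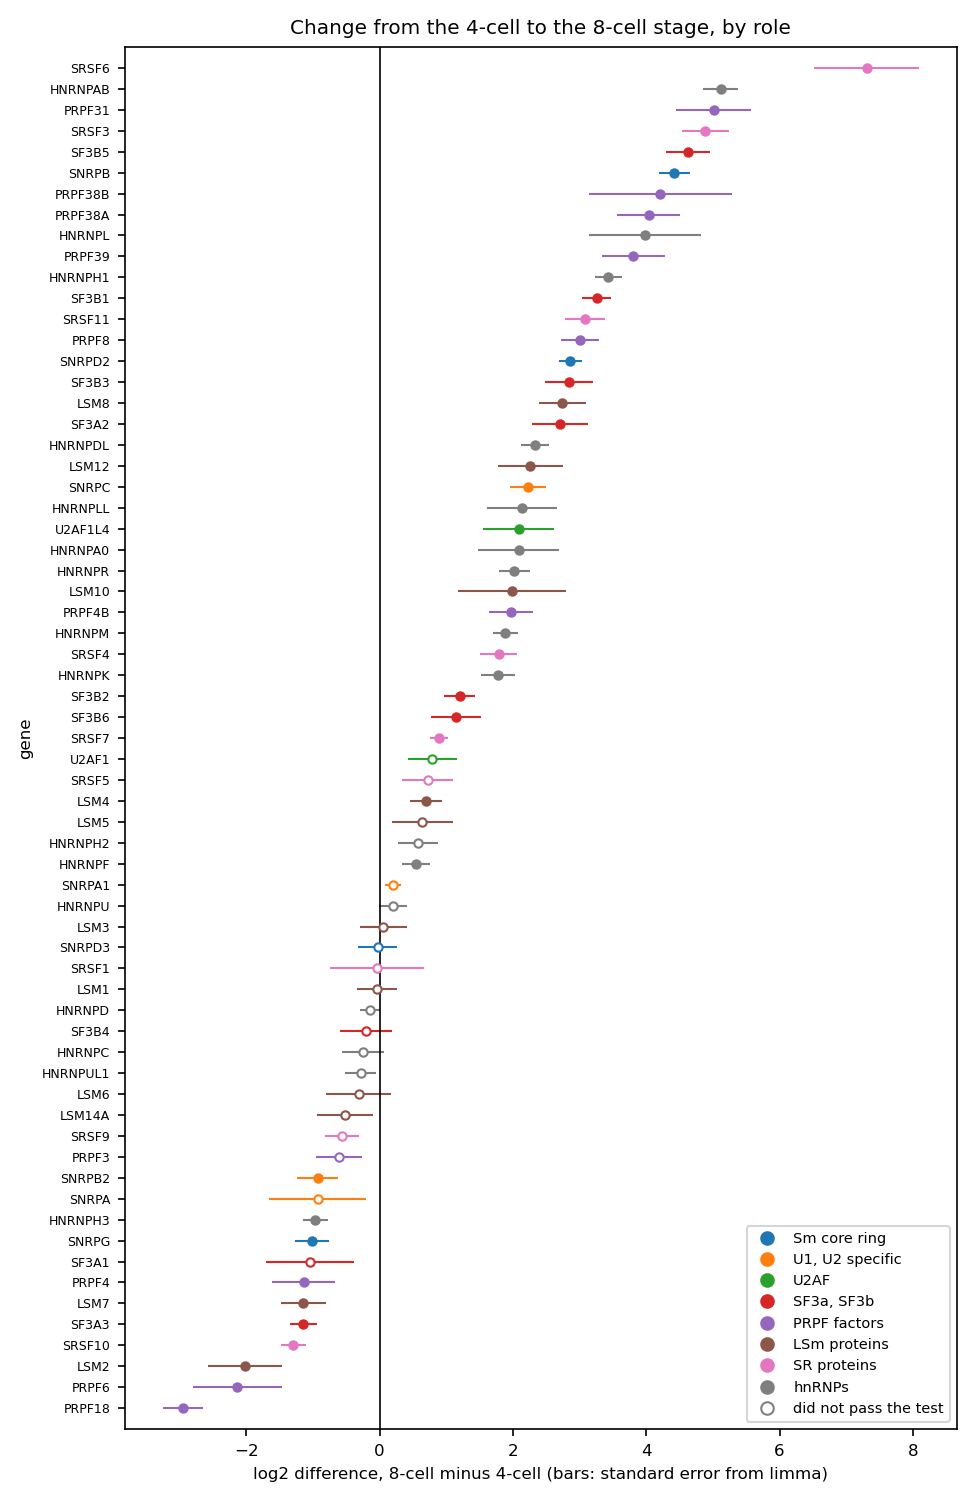
Points give the 8-cell minus 4-cell log2 difference of each member with its limma standard error, coloured by role, and open points did not pass the test. Values run from 7.31 for SRSF6 to -2.95 for PRPF18, and 35 of the 45 filled points lie to the right of 0.

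SR proteins carry an RNA-binding domain and a tail rich in arginine and serine, and they mark exons for the spliceosome. Of the 9 on the array, 5 rose from the 4-cell to the 8-cell stage (SRSF3, SRSF4, SRSF6, SRSF7 and SRSF11) and SRSF10 fell. These are 55.6% and 11.1%, beside 31.2% and 34.3% of all genes. The largest change of all members was that of SRSF6. Its values were 2.09 and 2.06 on the 4-cell arrays and 10.23, 8.80, 8.49 and 9.99 on the 8-cell arrays. Both 4-cell values lay below 4, so the rise was at least 41.6-fold (log2 difference 7.31 ± 0.79 SE, adjusted p = 1.28e-07, n = 2 and 4). The gene then stayed high, at 10.40, 9.74 and 9.65 in morulae and 9.78, 10.21 and 9.17 in blastocysts. The in vivo oocyte arrays read 2.08, 6.11 and 2.09, and the high one is the array that held 12 of 18 cumulus and granulosa markers. Whether the other cells carried the SRSF6 signal there was not tested.

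SRSF3, the smallest SR protein and also an adaptor for mRNA export, read 9.81 and 9.78 on the 4-cell arrays and 14.55, 14.81, 14.80 and 14.57 on the 8-cell arrays. The groups were far apart, and the rise was 29.6-fold (4.89 ± 0.35, adjusted p = 4.91e-10). It remained between 14.08 and 14.29 on all morula and blastocyst arrays, and the blastocyst was 36.2-fold above the in vivo oocyte (adjusted p = 6.84e-11).

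SRSF5 changed a stage later. It read 9.75, 9.98, 9.41 and 10.02 in 8-cell embryos and 12.57, 13.00 and 11.45 in morulae. Every morula value was above every 8-cell value, and the rise was 5.87-fold (2.55 ± 0.34, adjusted p = 2.66e-06, n = 3 and 4). At 12.88, 12.49 and 12.72 the blastocysts were 14.4-fold above the in vivo oocytes (9.01, 8.83 and 8.69).

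SRSF10, a splicing repressor when dephosphorylated, dipped at the 8-cell stage. The 4-cell arrays gave 13.05 and 12.93, the 8-cell arrays 11.65, 11.75, 11.73 and 11.62, and the morula arrays 13.05, 12.93 and 13.12. The 8-cell values lay below all 4-cell and morula values, with a fall of 2.46-fold (-1.30 ± 0.19, adjusted p = 5.7e-06) followed by a rise of 2.54-fold (1.34 ± 0.17, adjusted p = 1.05e-06). It was among the members with their lowest mean at the 8-cell stage, 6 of 65 (9.23%), beside 23.1% of all genes.

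SRSF4 rose 3.45-fold at the 8-cell stage and then fell 4.57-fold to the morula (-2.19 ± 0.24, adjusted p = 2.23e-07). Its 8-cell values were 12.11, 12.83, 12.98 and 12.14 and its morula values 10.09, 10.53 and 10.35, with no overlap. SRSF7, which shuttles between nucleus and cytoplasm, rose 1.85-fold and fell 1.5-fold over the same steps. SRSF9 differed by -0.56 ± 0.26 between the 8-cell and 4-cell stage, which did not pass, and rose 1.75-fold to the morula.

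SRSF1, the founding SR protein, had a profile of its own. The in vivo oocytes read 6.54, 8.05 and 6.31, the zygotes 8.94, 9.37 and 10.39, and the 2-cell and 4-cell arrays 11.33 to 11.70. Zygotes were above all in vivo oocytes and the rise was 6.07-fold (2.60 ± 0.67, adjusted p = 0.0366). That call was lost without in vivo oocyte array 1 (adjusted p = 0.149) or 3 (0.153), or zygote array 2 (0.088) or 3 (0.168). It was also lost with the mean of the gene's probe sets, without the filter on low values and with spike-in centring. The 8-cell arrays spread from 10.01 and 10.60 on arrays 1 and 4 to 12.35 and 12.95 on arrays 2 and 3. Morulae read 8.42, 8.34 and 9.26, below every 8-cell array, and the fall was 6.99-fold (-2.80 ± 0.62, adjusted p = 0.00073). A second probe set for SRSF1 fell at that step too (-3.35), while the third rose by 1.40 (adjusted p = 0.00535), so the gene's fall depended on the probe set read.

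The hnRNPs coat nascent transcripts and act in splicing, export and stability. Of the 16 on the array, 10 rose from the 4-cell to the 8-cell stage and HNRNPH3 alone fell among those that passed. The shares were 62.5% and 6.25%, beside 31.2% and 34.3% of all genes. The median change of the 16 hnRNPs was 1.83 log2 units. HNRNPAB, a relative of the AU-rich element binder HNRNPD, led them with 8.66 and 8.48 in 4-cell embryos and 13.78, 13.60, 13.28 and 14.09 in 8-cell embryos. The groups did not overlap, and the rise was 34.7-fold (5.12 ± 0.26, adjusted p = 3.99e-12, n = 2 and 4). It stayed at 13.03 to 13.32 on the morula and blastocyst arrays, 18.0-fold above the oocyte in the blastocyst. HNRNPD itself differed by no more than 0.86 between any stage means.

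The H family binds runs of guanine, and its members took different courses. HNRNPH1 read 11.88, 12.13 and 11.81 in zygotes, 10.85 and 10.69 at the 2-cell stage and 9.90 and 10.10 at the 4-cell stage. It then stood at 13.40, 13.39, 13.21 and 13.72 at the 8-cell stage, above every earlier array. The fall to the 2-cell stage was 2.25-fold (adjusted p = 0.00382, and 0.0543 without 2-cell array 2) and the rise to the 8-cell stage 10.8-fold (3.43 ± 0.20, adjusted p = 2.03e-11). HNRNPH2 rose later, from 9.11, 9.66, 10.24 and 9.63 at the 8-cell stage to 11.08, 11.55 and 11.29 in morulae, by 3.13-fold (adjusted p = 2.48e-05). HNRNPH3 went the other way. It read 13.79 and 13.89 at the 4-cell stage, 12.55, 13.24, 13.04 and 12.68 at the 8-cell stage, 12.23, 12.18 and 12.19 in morulae and 11.45, 11.48 and 11.45 in blastocysts. Each of these stages lay wholly below the one before, with falls of 1.95-fold (adjusted p = 0.000204), 1.60-fold (0.00205) and 1.67-fold (0.0128).

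HNRNPL, which binds CA-rich RNA, read about background on every array outside the 8-cell group, between 2.21 and 2.70. The 8-cell arrays gave 4.36, 8.38, 8.37 and 4.14, so 2 of the 4 were well above the floor and the others just above it. The rise from the 4-cell stage was at least 4.97-fold (adjusted p = 0.000377), but with the spread taken from the 4-cell and 8-cell arrays alone the adjusted p was 0.0613. The fall to the morula was at least 4.97-fold too (adjusted p = 0.000128). The 2 further probe sets of HNRNPL did not pass the filter on low values. The oocyte marker MOS, a kinase of meiotic arrest, split the same arrays in the same way, at 6.46 and 6.59 on arrays 1 and 4 and 10.65 and 10.70 on arrays 2 and 3. Its part in the HNRNPL spread was not tested.

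Its paralogue HNRNPLL, a regulator of alternative exons known from lymphocytes, followed another course. Values of 5.70 and 6.25 at the 4-cell stage became 7.97, 7.80, 8.47 and 8.21 at the 8-cell stage and 9.72, 9.97 and 9.67 in morulae. Both rises passed, by 4.39-fold (adjusted p = 0.00161) and 3.20-fold (0.00484), and no array overlapped. With the mean of its probe sets the 8-cell rise was 0.77 and did not pass (adjusted p = 0.149).

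HNRNPK, which binds cytosine-rich RNA, climbed over several steps. In vivo oocytes read 11.14, 10.16 and 10.96, zygotes 10.52, 10.67 and 11.31, 2-cell embryos 12.18 and 11.76, 4-cell embryos 11.64 and 11.81, 8-cell embryos 13.26 to 13.76 and morulae 14.08 to 14.15. The 2-cell stage was 2.20-fold above the zygote (adjusted p = 0.0276) and the 8-cell stage 3.42-fold above the 4-cell stage (adjusted p = 6.2e-06). The first of these calls was lost without either 2-cell array or without zygote array 1 or 2 (adjusted p = 0.0683 to 0.208). It was also lost with the mean of the gene's probe sets.

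HNRNPDL, HNRNPM and HNRNPR rose 5.03-fold, 3.70-fold and 4.05-fold at the 8-cell stage, with adjusted p-values of 8.39e-09, 2.63e-08 and 2.74e-07. HNRNPDL read 12.07 and 11.68 in 4-cell embryos and 14.15 to 14.29 in 8-cell embryos, one of the tightest groups. HNRNPA0 rose 4.24-fold, a call lost without 4-cell array 2 (adjusted p = 0.136) or 8-cell arrays 1 and 4 (0.0646). HNRNPF rose 1.46-fold with overlapping arrays, and without 4-cell array 1, which held leukocyte markers, the difference was 0.05 (adjusted p = 0.885). HNRNPU, a scaffold protein of the nucleus, differed by 0.20 ± 0.21 at that step and did not pass. HNRNPC, which sorts transcripts by length and binds uridine tracts, spread from 12.72 and 12.99 on 8-cell arrays 1 and 4 to 14.24 and 14.21 on arrays 2 and 3. Its 8-cell mean of 13.54 ± 0.80 (SD, n = 4) differed from the 4-cell mean of 13.79 by -0.25 ± 0.31 (SE), which did not pass.

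**Figure D4:**
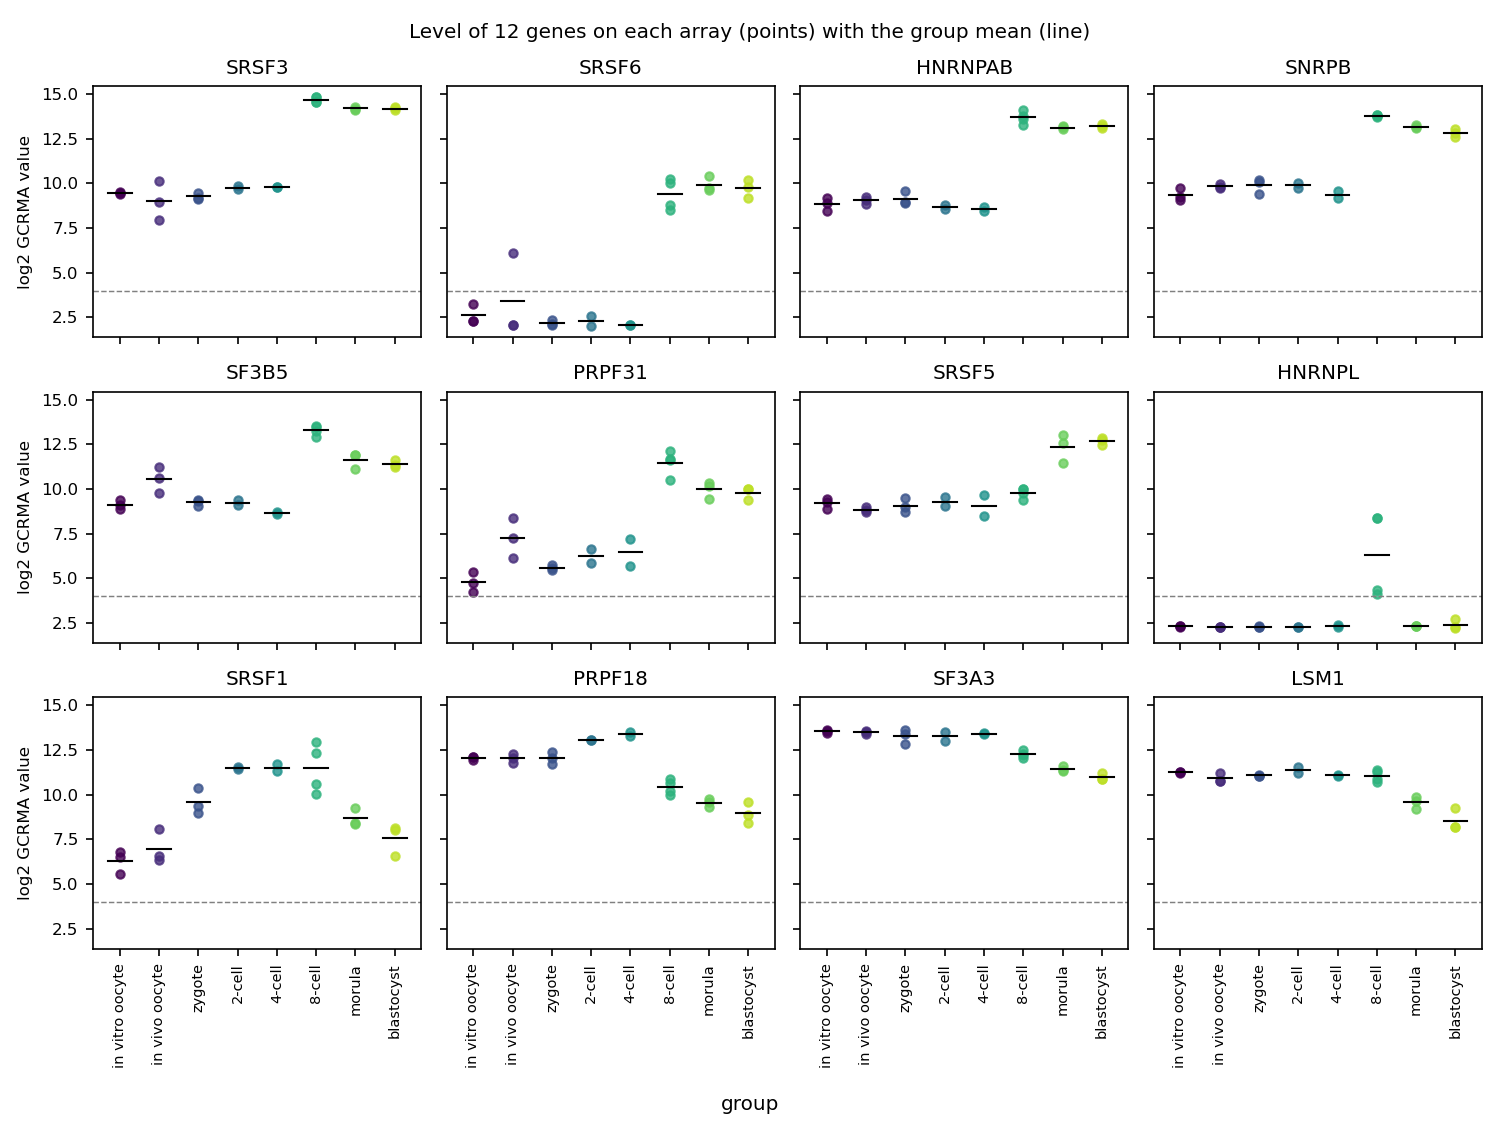
Points give the log2 GCRMA level of 12 members on each array in each of the 8 groups, short lines the group means, and the dashed line the floor of 4. SRSF3, SRSF6, HNRNPAB, SNRPB, SF3B5 and PRPF31 step up at the 8-cell stage and SRSF5 a stage later. PRPF18 and SF3A3 step down at the 8-cell stage and LSM1 a stage later, while HNRNPL is above 4 only in 8-cell embryos.

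The Sm proteins form a ring around the RNA of each major snRNP except U6. Of the 4 on the array, 2 rose at the 8-cell stage and 1 fell (50% and 25%, beside 31.2% and 34.3% of all genes). SNRPB read 9.17 and 9.57 in 4-cell embryos and 13.79, 13.80, 13.73 and 13.82 in 8-cell embryos. The groups did not overlap, and the rise was 21.4-fold (4.42 ± 0.24, adjusted p = 7.08e-12). SNRPD2 rose 7.27-fold, from 11.59 and 11.58 to between 14.26 and 14.60 (adjusted p = 4.84e-11). SNRPG moved in the opposite direction, from 14.15 and 14.20 to 12.48, 13.62, 13.68 and 12.88. All 8-cell values were lower, and the fall was 2.02-fold (-1.01 ± 0.25, adjusted p = 0.00169), with an adjusted p of 0.0601 when the spread came from these 2 groups alone. SNRPD3 differed by -0.03 ± 0.29 at that step. It was the Sm protein that rose to the morula, by 1.75-fold (adjusted p = 0.0126), and the rise did not pass without morula array 3 (adjusted p = 0.0737) or 8-cell arrays 1 and 4 (0.208).

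Among proteins specific to U1 or U2, SNRPC, which helps U1 hold the start of the intron, rose 4.69-fold at the 8-cell stage. It read 12.20 and 11.90 at the 4-cell stage and 14.03, 14.49, 14.35 and 14.23 at the 8-cell stage, with no overlap (2.23 ± 0.27, adjusted p = 4.94e-07). SNRPB2, a U2 protein, fell 1.90-fold (adjusted p = 0.012), from 13.24 and 13.44 to 11.79, 13.02, 13.05 and 11.79. That fall did not pass without 4-cell array 2 (adjusted p = 0.0927), and without 8-cell arrays 1 and 4 the difference was -0.31 (0.219). SNRPA, which binds U1 RNA, rose to the morula by 5.62-fold (2.49 ± 0.65, adjusted p = 0.00279). Its 8-cell arrays read 6.22, 6.82, 6.75 and 7.05 and its morula arrays 8.82, 9.06 and 9.73, so they did not overlap. SNRPA1, a leucine-rich repeat protein of U2, kept within 13.02 and 13.51 on all 20 in vivo arrays.

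U2AF binds the end of the intron and recruits U2. U2AF1L4, a paralogue of its small subunit, rose 4.25-fold at the 8-cell stage (2.09 ± 0.53, adjusted p = 0.002). The 4-cell values were 9.29 and 9.45 and the 8-cell values 10.54, 12.12, 12.35 and 10.81, all higher. It fell 2.53-fold to the morula (adjusted p = 0.021), and leaving out 8-cell array 2 or 3 or morula array 2 gave adjusted p-values of 0.0636 to 0.102. Without 8-cell arrays 2 and 3 together the difference was -0.56 (adjusted p = 0.343). U2AF1 itself read 11.73 and 11.77 and then 13.03, 12.21, 11.90 and 13.03. These groups did not overlap, but the difference of 0.79 ± 0.37 did not pass. In the blastocyst U2AF1 was 2.76-fold above the in vivo oocyte (adjusted p = 0.00105).

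SF3a and SF3b are the parts of U2 that clamp the branch site. Of the 9 subunits, 6 rose at the 8-cell stage and SF3A3 fell (66.7% and 11.1%, beside 31.2% and 34.3% of all genes). To the morula 5 of 9 then fell (55.6%, beside 28.4% of all genes), with no subunit rising past the test. SF3B5, the smallest subunit of SF3b, read 8.62 and 8.71 at the 4-cell stage and 13.24, 13.52, 13.49 and 12.93 at the 8-cell stage. The groups were well apart, and the rise was 24.7-fold (4.63 ± 0.33, adjusted p = 4.39e-10). It fell 3.15-fold to 11.89, 11.11 and 11.91 in morulae (adjusted p = 7.68e-05).

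SF3B1, the large subunit that contacts the branch site, read 11.80, 12.06 and 11.72 in zygotes and 10.46 and 10.08 in 2-cell embryos, a fall of 3.01-fold (-1.59 ± 0.23, adjusted p = 0.000601). With the mean of its probe sets that fall did not pass. From 9.83 and 10.09 at the 4-cell stage SF3B1 rose 9.55-fold to 13.22, 13.00, 13.12 and 13.51 (3.26 ± 0.22, adjusted p = 1.4e-10). It fell 2.18-fold to the morula (adjusted p = 4.56e-05). Of its other probe sets, 2 fell at that step and 1 rose by 2.18 log2 units (adjusted p = 0.0233), so the morula value depended on the probe set.

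SF3B3 rose 7.16-fold and SF3A2 6.55-fold at the 8-cell stage, with adjusted p-values of 9.41e-07 and 1.31e-05. SF3A2 read 9.68 and 9.79 before and 12.30, 12.71, 12.55 and 12.23 after, and then fell 3.17-fold to 11.05, 10.81 and 10.49 in morulae (adjusted p = 0.000781). SF3A3, the subunit that bridges SF3a to U2, declined instead. Its 4-cell arrays gave 13.37 and 13.44, its 8-cell arrays 12.20, 12.30, 12.51 and 12.05, its morulae 11.37, 11.31 and 11.61 and its blastocysts 10.89, 11.21 and 10.86. Each stage lay below the one before, with falls of 2.21-fold (-1.15 ± 0.20, adjusted p = 5.5e-05) and 1.78-fold (adjusted p = 0.000513) at the first and second step. The blastocyst was 5.70-fold below the in vivo oocyte (-2.51 ± 0.19, adjusted p = 6.95e-10). SF3B4 was also lower in the blastocyst, by 3.43-fold (adjusted p = 0.000246).

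SF3B2 rose 2.30-fold, from 10.60 and 10.73 to between 11.67 and 12.06 (1.20 ± 0.23, adjusted p = 0.000157). SF3B6, which touches the branch adenosine, read 12.18 and 12.56 on 8-cell arrays 1 and 4 and 13.96 and 14.00 on arrays 2 and 3. Its rise of 2.21-fold (adjusted p = 0.0131) did not pass without 4-cell array 1 (adjusted p = 0.0594) or 2 (0.0694). It was 0.34 (0.239) without 8-cell arrays 2 and 3 and 0.01 (0.993) with the mean of its probe sets.

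The PRPF factors are named after yeast mutants of pre-mRNA processing. Of the 10, 6 rose at the 8-cell stage and 3 fell, and 6 then fell to the morula. Over all genes 31.2% rose and 34.3% fell at the 8-cell stage, and 28.4% fell to the morula. PRPF31 joins U4/U6 to U5. It read 7.22 and 5.70 at the 4-cell stage and 12.12, 11.63, 10.49 and 11.66 at the 8-cell stage, with no overlap and a rise of 32.3-fold (5.01 ± 0.56, adjusted p = 2.21e-07, n = 2 and 4). Morulae read 10.17, 10.36 and 9.45, all lower than the 8-cell arrays. That fall of 2.79-fold (adjusted p = 0.0161) did not pass without morula array 3 (adjusted p = 0.0835) or 8-cell arrays 1 and 4 (0.14).

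PRPF8, the core around which the catalytic RNA folds, read 10.96, 11.44 and 10.58 in zygotes, 9.97 and 9.10 at the 2-cell stage, 9.29 and 9.17 at the 4-cell stage and 12.61, 12.08, 11.88 and 12.38 at the 8-cell stage. The fall to the 2-cell stage was 2.74-fold (adjusted p = 0.0116) and the rise to the 8-cell stage 8.03-fold (3.01 ± 0.29, adjusted p = 2.3e-08). The earlier fall did not pass without 2-cell array 2 (adjusted p = 0.236) or zygote array 2 (0.0654), nor with the mean of the gene's probe sets.

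PRPF38A, a factor of the complex just before activation, was near background at 3.78 and 3.94 and then read 7.98, 7.39, 8.13 and 8.10, a rise of at least 14.9-fold (adjusted p = 3.79e-07). PRPF39, associated with U1, rose at least 13.7-fold, from 5.02 and 3.93 to between 7.76 and 8.99 (adjusted p = 9.53e-07). PRPF38B was the most variable member within groups. It read 12.07, 10.98, 8.23 and 12.19 in 8-cell embryos and 7.76, 8.48 and 4.68 in morulae. Its rise from the 4-cell stage was 18.6-fold (4.21 ± 1.08, adjusted p = 0.002) and its fall to the morula 14.9-fold (-3.90 ± 0.95, adjusted p = 0.00165), the latter with overlapping arrays. PRPF4B, a kinase of the tri-snRNP, rose 3.91-fold (adjusted p = 3.57e-05).

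PRPF18, which acts at the second catalytic step, had the largest fall among members from the 4-cell to the 8-cell stage. The 4-cell arrays read 13.50 and 13.27, the 8-cell arrays 10.90, 10.22, 9.99 and 10.63, the morulae 9.74, 9.31 and 9.60 and the blastocysts 8.88, 9.61 and 8.39. The fall at the 8-cell stage was 7.75-fold (-2.95 ± 0.30, adjusted p = 6.15e-08), and the blastocyst was 8.35-fold below the in vivo oocyte (adjusted p = 1.35e-08). The second probe set of PRPF18 gave the same oocyte-to-blastocyst direction (-2.84, adjusted p = 5.73e-07) with another timing. It differed by 0.13 at the 8-cell stage (adjusted p = 0.806) and fell by 4.60 to the morula (adjusted p = 5.28e-10).

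PRPF6, which links U5 to U4/U6, read 7.57 and 7.15 at the 4-cell stage and 6.77, 3.49, 4.38 and 6.27 at the 8-cell stage. All 8-cell values were lower, and the fall was at least 4.02-fold (-2.13 ± 0.67, adjusted p = 0.00923). It did not pass without 4-cell array 1 (adjusted p = 0.0761), and without 8-cell arrays 2 and 3 the difference was -0.84 (0.146). PRPF4, a U4/U6 protein, read 12.84 and 12.50 and then 11.39, 11.76, 11.64 and 11.32. Its 2.20-fold fall (adjusted p = 0.0431) was lost without 4-cell array 1 or 2 or 8-cell array 1, 3 or 4 (adjusted p = 0.0518 to 0.208). The further fall to 10.18, 10.10 and 10.15 in morulae was 2.61-fold (adjusted p = 0.00855, and 0.0584 without 8-cell arrays 2 and 3).

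LSm proteins resemble Sm proteins and form rings of their own. The nuclear ring with LSM8 holds the tail of U6, while the cytoplasmic ring with LSM1 in its place acts in mRNA decay, and the other subunits are shared. Of 11 LSm members 4 rose and 2 fell at the 8-cell stage (36.4% and 18.2%), and 3 rose and 3 fell to the morula (27.3% each). In blastocysts 3 were higher and 3 lower than in in vivo oocytes (27.3% each). Over all genes the shares were 31.2% and 34.3%, 30% and 28.4%, and 36.2% and 32.7%. The LSm shares to the morula were close to those of all genes. LSM8 read 8.30 and 8.87 in 4-cell embryos and 10.58, 11.94, 11.96 and 10.84 in 8-cell embryos. All of the latter were higher, by 6.68-fold (2.74 ± 0.35, adjusted p = 1.39e-06), and LSM8 stayed between 10.38 and 11.21 thereafter.

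LSM1 differed by -0.04 ± 0.30 at the 8-cell stage. It read 10.85, 11.40, 11.26 and 10.68 there, 9.18, 9.62 and 9.89 in morulae and 8.18, 9.23 and 8.20 in blastocysts. The morulae were all lower than the 8-cell embryos, with a fall of 2.79-fold (-1.48 ± 0.27, adjusted p = 8.8e-05). The next fall, to the blastocyst, was 2.04-fold (adjusted p = 0.0268) with overlapping arrays, and leaving out blastocyst array 1 or 3 or morula array 2 or 3 gave adjusted p-values of 0.09 to 0.141. In the blastocyst LSM1 was 5.21-fold below the in vivo oocyte (adjusted p = 3.96e-07).

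Subunits shared by both rings did not move together. LSM7 fell 2.21-fold at the 8-cell stage (adjusted p = 0.00632), from 11.22 on both arrays to 10.22, 10.19, 10.09 and 9.79, and rose 2.46-fold to 11.39, 11.15 and 11.58 in morulae (adjusted p = 0.00104). LSM2 fell 4.06-fold at the 8-cell stage (-2.02 ± 0.56, adjusted p = 0.00379), from 7.93 and 8.47 to 6.92, 5.06, 6.28 and 6.46, a call at adjusted p = 0.0525 without 4-cell array 2. LSM4 rose 1.62-fold at that step (adjusted p = 0.0161, 0.208 without 4-cell array 2 and 0.0816 without 8-cell arrays 2 and 3). LSM5 rose 3.03-fold to the morula (adjusted p = 0.00205) and LSM6 2.15-fold (0.0348, and 0.0714 to 0.168 without 8-cell array 2 or 3 or morula array 3). LSM3 differed by 0.06 ± 0.36 at the 8-cell stage, which did not pass.

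The remaining LSm members act outside U6. LSM10, a subunit of the U7 particle that trims histone mRNA, read 8.35, 9.39, 10.14 and 8.26 in 8-cell embryos and 6.19, 6.75 and 6.74 in morulae. Its rise from the 4-cell stage was 3.96-fold (adjusted p = 0.0404) and did not pass without 4-cell array 1 or 2 or 8-cell array 2 or 3 (adjusted p = 0.0717 to 0.177). The morula and 8-cell groups did not overlap, and the fall was 5.57-fold (-2.48 ± 0.72, adjusted p = 0.00639, and 0.0902 without 8-cell arrays 2 and 3). LSM12 rose at least 2.93-fold at the 8-cell stage from values below 4 (adjusted p = 0.000476), to 4.11, 6.17, 5.62 and 6.31. LSM14A, a protein of cytoplasmic RNA granules, fell 1.96-fold to the morula with overlapping arrays (adjusted p = 0.0341). That call was lost without 8-cell array 1, 3 or 4 or morula array 1 or 2 (adjusted p = 0.0555 to 0.162).

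**Figure D5:**
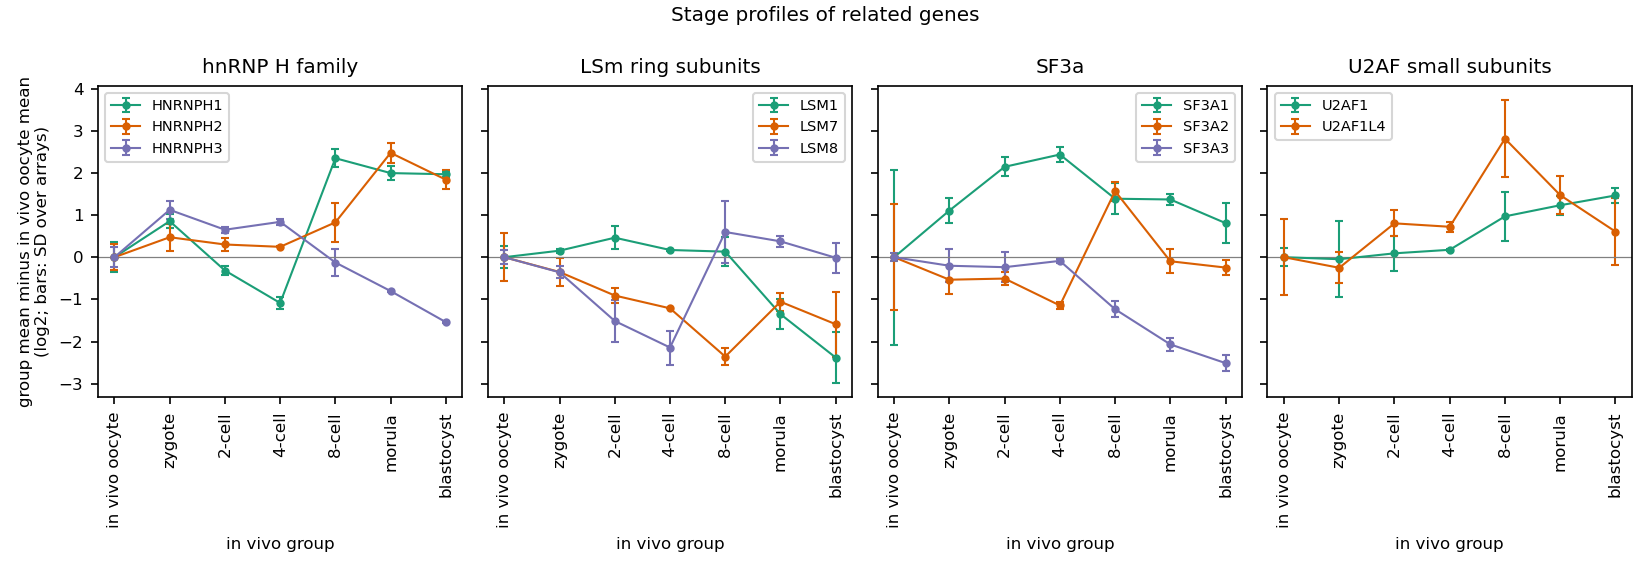
Points joined by lines give the stage mean of related members minus their in vivo oocyte mean, in log2 units, over the 7 in vivo stages, with the SD over arrays as bars. HNRNPH1 and HNRNPH2 end above and HNRNPH3 below the oocyte level. SF3A3 declines after the 4-cell stage and LSM1 after the 8-cell stage, and U2AF1L4 peaks at the 8-cell stage.

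Between the in vivo oocyte and the 4-cell stage few members changed. In zygotes 3 members were higher than in in vivo oocytes and 1 lower (4.62% and 1.54%), beside 0.891% and 2.28% of all genes. HNRNPH3 read 13.04, 13.22 and 12.75 in oocytes and 14.06, 14.36 and 13.95 in zygotes, all higher, by 2.18-fold (1.12 ± 0.18, adjusted p = 0.00133). HNRNPH1 rose 1.81-fold (adjusted p = 0.0134), SRSF1 rose as given above, and SF3B5 fell 2.47-fold, from 11.25, 9.77 and 10.63 to 9.36, 9.34 and 9.04 (adjusted p = 0.0245). The number past the test moved with single arrays. It was 1 without in vivo oocyte array 1 or zygote array 2, 2 without in vivo oocyte array 3 or zygote array 3, and 11 without in vivo oocyte array 2. HNRNPH3 passed under each of these, while the call for HNRNPH1 was lost without in vivo oocyte array 1 (adjusted p = 0.0848) or zygote array 2 (0.0751), and that for SF3B5 without in vivo oocyte array 1 or 3 or any zygote array (0.053 to 0.153).

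From the zygote to the 2-cell stage 3 members rose and 3 fell, 4.62% each way, beside 1.41% and 1.92% of all genes. Besides SF3B1, PRPF8, HNRNPH1 and HNRNPK, described above, LSM4 rose 2.03-fold (adjusted p = 0.0342) and SRSF10 1.75-fold (adjusted p = 0.0305). SRSF10 read 11.85, 11.65 and 12.42 in zygotes and 12.80 and 12.76 in 2-cell embryos, which did not overlap. The calls for LSM4 and SRSF10 were both lost without 2-cell array 1 or 2 or zygote array 1 or 2. The count was 1 without 2-cell array 2, 3 without 2-cell array 1 or zygote array 1 or 2, and 13 without zygote array 3. Without the 4 arrays that carried markers of other cells it was 4, with 1 rise and 3 falls. SF3B1 kept its call whichever single array was left out, but not with the mean of its probe sets. With the spread taken from these 5 arrays alone 0 members passed limma's test, and 18 had an unadjusted p under 0.05.

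Between the 2-cell and 4-cell stages no member passed limma's test, beside 0.0141% of all genes rising and 0% falling, and 1 member had an unadjusted p under 0.05. The median difference was -0.06 over members and 0.01 over all genes. In simulated data of this layout, with 2 arrays a group, a change of 1.5 log2 units was found for 18% of the changed probe sets and one of 3 for 70%.

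From the morula to the blastocyst 2 members fell and no member rose (3.08% and 0%), beside 3.76% falling and 5.74% rising among all genes, and 15 members had an unadjusted p under 0.05. The members that fell, HNRNPH3 and LSM1, have their values above. Without blastocyst array 1, blastocyst array 3, morula array 2 or morula array 3 the count was 1, without blastocyst array 2 it was 4, and without the 4 arrays that carried markers of other cells it was 0, with 5 members at an unadjusted p under 0.05 by limma. HNRNPH3 kept its call whichever single array was left out.

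In vitro oocytes differed from in vivo oocytes in 8 members, of which 1 was higher and 7 lower (1.54% and 10.8%), beside 0.721% and 11.7% of all genes, so the share was close to the background. The in vivo oocyte arrays are also those used in the zygote and blastocyst comparisons. U2AF1L4 read 6.28, 6.18 and 6.28 in vitro and 9.65, 7.94 and 8.34 in vivo, lower on every in vitro array, by 5.27-fold (-2.40 ± 0.50, adjusted p = 0.00437, n = 3 and 3). LSM3 read 10.65, 10.66 and 10.88 against 13.22, 11.53 and 12.54, a 3.25-fold difference (-1.70 ± 0.34, adjusted p = 0.00271). SNRPD2 was 2.19-fold lower in vitro (adjusted p = 0.000272) and SNRPA1 1.61-fold lower (adjusted p = 0.000619), on non-overlapping arrays. SNRPA1 read 12.51, 12.60 and 12.51 in vitro, below all 20 in vivo arrays.

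PRPF31 (5.54-fold), PRPF4 (3.69-fold) and SF3B5 (2.70-fold) were also lower in vitro, with adjusted p-values of 0.00551, 0.0109 and 0.00596. These 3 calls were lost without in vivo oocyte array 1 (adjusted p = 0.0564, 0.111 and 0.0584). HNRNPH3 was 1.51-fold higher in vitro (adjusted p = 0.0456), a call lost without in vitro oocyte array 1 or 2 or in vivo oocyte array 1 or 3 (adjusted p = 0.136 to 0.213).

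In vivo oocyte array 2, which held the granulosa markers, lay nearer the in vitro values for several members. PRPF4 read 12.13, 9.38 and 11.64 in vivo and 9.06 to 9.27 in vitro, SF3A1 8.74, 4.81 and 7.91 against 5.51 to 5.81, and LSM10 9.51, 4.74 and 8.49 against 4.86 to 5.47. These were chosen after their values were seen. Without that array 22 members differed, 7 higher and 15 lower in vitro, and without in vivo oocyte array 1 the number was 4. With the spread taken from these 6 arrays alone no member passed limma's test, and 21 had an unadjusted p under 0.05.

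Other genes of the splicing machinery were taken from 7 lists of 129 genes, of which 97 were tested. From the 4-cell to the 8-cell stage 45 of them rose and 25 fell (46.4% and 25.8%, beside 31.2% and 34.3% of all genes). The median change over these 97 was 1.21. RBMX, an hnRNP by structure, rose at least 609-fold (adjusted p = 9e-10), and SFPQ, a paraspeckle protein that also binds the spliceosome, at least 160-fold (adjusted p = 1.04e-11). RBMX2 fell 24.0-fold and the SR protein kinase SRPK2 19.1-fold. To the morula 10 rose and 47 fell (10.3% and 48.5%, beside 30% and 28.4% of all genes), with a median of -0.80. TXNL4A, a U5 protein, rose 11.6-fold and RBM47 5.73-fold there, while RNPC3 and PDCD7, proteins of the minor spliceosome, fell at least 47.5-fold and 18.2-fold. In blastocysts against in vivo oocytes 33 were higher and 31 lower (34% and 32%, beside 36.2% and 32.7% of all genes). Both shares were close to the background. The largest differences were SFPQ (at least 130-fold) and RBM47 (214-fold) upward, and RBMX2 (69.8-fold) and PDCD7 (at least 20.2-fold) downward.

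At the 8-cell stage 31.2% of all genes rose and 34.3% fell. By list, 7 of 12 early recognition factors and U2 partners rose there and 2 fell (58.3% and 16.7%). Of 20 regulators of alternative splicing 10 rose and 5 fell (50% and 25%). Among factors of spliceosome activation and the catalytic steps 8 of 19 rose and 6 fell (42.1% and 31.6%). Among other tri-snRNP and minor snRNP proteins 7 of 18 rose and 5 fell (38.9% and 27.8%). Both lay near the shares of all genes. Of 11 snRNP assembly genes 5 rose and 2 fell (45.5% and 18.2%). Of 12 partners and kinases of SR proteins 5 rose and 3 fell (41.7% and 25%), and of 5 exon junction complex genes 3 rose and 2 fell. In the in vitro oocyte 14 of the 97 genes were lower than in the in vivo oocyte (14.4%, beside 11.7% of all genes). That share was close to the background. The 14 included SNUPN, the import adaptor for snRNPs (17.6-fold), and SART1 (at least 8.97-fold).

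Several members were read by more than 1 probe set, 21 of the 65. For 16 of them at least 2 probe sets were tested. At the 8-cell step all 16 had a probe set past the test, in 6 all probe sets moved the same way past it, and in SRSF11 they moved in opposite directions. The third SRSF11 probe set fell by 1.27 (adjusted p = 0.0232) from 4.18 to 2.91, while the others rose by 3.08 and 4.42. To the morula 14 had one past the test, 6 agreed throughout, and SRSF1 and SF3B1 were opposed. Between oocyte and blastocyst 14 had one, 5 agreed throughout, and HNRNPUL1 was opposed (0.56, adjusted p = 0.0336, and -0.62, adjusted p = 0.0267).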

How the data were processed

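The values are log2 GCRMA intensities of 23 Affymetrix arrays, as deposited by the authors. GCRMA 2.0.0 is named in the submitters' processing notes, and other settings are not given in the sources used here. Control probe sets (112) were left out, as were probe sets not above 4 on at least 2 arrays, which left 14571. Probe sets were named through the platform annotation, and all 65 members' gene IDs matched RefSeq with no symbol changed. A group-means model over all arrays was fitted with limma 3.58.1 in R 4.3.3 (lmFit, eBayes with trend), and p-values were adjusted by Benjamini-Hochberg over 14571 probe sets in each comparison. "Passed" means an adjusted p under 0.05. Where a lower group lay below 4, its arrays were set to 4 and the fold is given as "at least". Full statistics were given to the 6 largest rises and falls with non-overlapping arrays in a comparison and to members moving against their role list. Other splicing genes were named as the 2 largest rises and falls. The members and lists were chosen with earlier results of these data known. The fit was tested on simulated data. Alternatives were other centrings, filters, spreads and probe-set summaries, a replicate block, each array left out and, added after seeing the data, each pair of 8-cell arrays left out. The number of arrays limits the precision.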

Additional observations from a re-analysis of the deposited data

Results flagged for a closer look

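In the 8-cell group of 4 arrays, 2 values lay far from the others by Dixon's ratio, the gap to the nearest array divided by the group's range, above its 95% critical value. For LSM14A the lowest array, 8-cell array 2 at 9.07, gave a ratio of 0.839, with the other arrays at 10.25, 10.38 and 10.47. For SRSF9 the lowest array, 8-cell array 4 at 11.19, gave 0.919, with the others at 11.75, 11.74 and 11.79. All 65 members were tested in this way, and chance alone flags about 1 in 20.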

How the results depend on the processing

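The number of members past the test was recomputed under each alternative. With arrays centred on spike-in controls it was 3 for in vitro against in vivo oocytes, 0 for zygote against oocyte, 0 for 2-cell against zygote, 19 for morula against 8-cell and 0 for blastocyst against morula. With the spread from the compared arrays alone it was 0, 0, 0, 36 and 1 for the same comparisons. Without the 4 arrays that carried markers of other cells it was 21 for the oocyte comparison, 8 for zygote against oocyte and 0 for blastocyst against morula. Without the trend in eBayes it was 3 for 2-cell against zygote and 1 for blastocyst against morula, which was 0 with arrays centred on their expressed probe sets. Where limma passed 0 members, unadjusted p-values under 0.05 numbered 6, 10 and 4 with spike-in centring (zygote, 2-cell, blastocyst against morula), 21, 10 and 18 with the compared arrays alone (oocytes, zygote, 2-cell), and 5 and 8 for blastocyst against morula without the 4 arrays and with expressed probe sets. The causes were not tested. Leaving out 1 array gave 39 to 45 members at the 8-cell step, 30 to 35 to the morula, 39 to 44 between oocyte and blastocyst, 58 to 62 by the F test, 4 to 22 between the oocyte groups, 1 to 11 in zygotes, 1 to 13 at the 2-cell stage, 0 to 0 at the 4-cell stage and 1 to 4 from morula to blastocyst. Between oocyte and blastocyst, spike-in centring turned HNRNPUL1 (-0.0541), SF3B1 (-0.0911) and SRSF7 (-0.0716), and the mean of probe sets turned HNRNPUL1 (-0.0025). The labels do not say whether array numbers pair the samples. Deviations from the group means correlated above 0.1 in 19 of 71 same-numbered pairs across groups (range -0.377 to 0.491). For 8 of 23 arrays the best match in another group had their own number. No chance level was computed for these counts, so they cannot decide whether the numbers pair samples. With a replicate block the counts were 43 at the 8-cell step, 34 to the morula, 44 between oocyte and blastocyst, 8, 4, 6, 0 and 2 in the oocyte, zygote, 2-cell, 4-cell and blastocyst-to-morula comparisons, and 61 by the F test. Of the calls, 31 of 45 at the 8-cell step, 16 of 38 to the morula and 24 of 43 between oocyte and blastocyst held under every alternative run.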
